A study of Mus musculus with 208 samples.

Results

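The 5 dopamine receptor genes of the mouse, Drd1, Drd2, Drd3, Drd4 and Drd5, were taken by symbol from the 39179 genes of the deposited count and FPKM matrices (FPKM, fragments scaled to transcript length and library depth). All 5 were present, as ENSMUSG00000021478, ENSMUSG00000032259, ENSMUSG00000022705, ENSMUSG00000025496 and ENSMUSG00000039358 in that order. The study sequenced polyadenylated RNA of whole striatum from C57BL/6 mice heterozygous for a knock-in allele of Htt, the huntingtin gene, and from wild types. The knock-in lines Q20, Q80, Q92, Q111, Q140 and Q175 are named after the length of the CAG repeat they carry, and Q20 lies in the normal human range. The altered allele replaces 1 endogenous copy in every cell of the animal, and no cells were sorted. Knock-ins were sampled at 2, 6 and 10 months of age, giving 18 knock-in groups with 144 libraries. The 8 wild-type groups with 64 libraries were cage mates of Q20 at 2 and 10 months and of each of the 6 lines at 6 months. Each of the 26 groups held 8 animals of both sexes. The question put to these genes is how their RNA differs with repeat length and with age.

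Dopamine receptors are G protein-coupled receptors of 2 classes. The D1-like receptors, Drd1 and Drd5, couple to Gs and Golf and raise cyclic AMP, and the D2-like receptors, Drd2, Drd3 and Drd4, couple to Gi and Go and lower it. In the striatum Drd1 marks the medium spiny neurons of the direct pathway and Drd2 those of the indirect pathway, while Drd2 and Drd5 are also made by cholinergic interneurons. Drd3 is known from the ventral striatum and the islands of Calleja, and Drd4 from the retina, the pineal gland and the prefrontal cortex.

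The promoters of the 2 abundant receptors are shown because their RNA moved together across the lines. They are RefSeq sequences of GRCm38.p6, from 250 bases before to 50 bases after the start, on the gene's own strand. Capitals mark the GC box, GGGCGG or its reverse complement, the letters to which Sp-family factors bind. The first lies at chr13:54055609-54055908 on the minus strand and belongs to the upstream of 2 listed Drd1 starts. The second lies at chr9:49340153-49340452 on the plus strand.
Drd1: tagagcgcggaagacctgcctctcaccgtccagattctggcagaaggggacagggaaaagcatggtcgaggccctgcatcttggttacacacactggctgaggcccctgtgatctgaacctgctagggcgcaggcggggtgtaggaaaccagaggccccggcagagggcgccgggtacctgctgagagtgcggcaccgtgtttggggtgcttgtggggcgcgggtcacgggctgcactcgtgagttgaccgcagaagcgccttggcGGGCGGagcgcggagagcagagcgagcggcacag
Drd2: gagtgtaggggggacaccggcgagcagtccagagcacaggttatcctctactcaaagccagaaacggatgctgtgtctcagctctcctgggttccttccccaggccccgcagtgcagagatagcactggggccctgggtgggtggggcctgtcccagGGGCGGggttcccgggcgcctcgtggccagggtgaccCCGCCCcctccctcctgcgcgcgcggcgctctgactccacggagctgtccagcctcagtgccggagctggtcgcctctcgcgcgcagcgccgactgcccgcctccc
The Drd1 window held 1 GC box and the Drd2 window held 2. The second Drd1 start held 1 as well, Drd4 held 3, Drd5 held 2 and Drd3 held 0. A GC box was present in 35.7% of 32851 promoter windows of the same length. The Drd3 window was also the one poorest in G and C, with 42.0%, against 65.7% and 59.3% at the Drd1 starts, 70.3% for Drd2 and for Drd5, 58.0% for Drd4 and a median of 52.7% over all windows. No member window held the TATA box TATAAA (13.6% of all windows), the cAMP response element TGACGTCA (1.79%) or the Egr site GCGNGGGCG (5.55%), on either strand.

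Total counts per library ran from 29345240 to 42999546 at 2 months, from 29120490 to 49550126 at 6 months and from 30280667 to 39632541 at 10 months. The shared markers of medium spiny neurons, the main cell type of striatum, summed to at least 1768 FPKM in every library, and none of the 15 was at 0. At 2 months 5 libraries stood apart, with a median correlation to the other libraries of their age of 0.901 to 0.949, against at least 0.972 in the other 51. They were Q20 males 2 and 3, Q80 male 5 and Q92 males 3 and 4. Mitochondrial genes took 20.5% to 24.1% of their counts, against 11.4% to 17.4% in the other 51. One further library of that age, in Q80, did not match its labelled sex.

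Drd1 and Drd2 were the 2 abundant receptor genes at every age. Over all libraries of 6 months Drd1 stood at 63.1 ± 10.8 FPKM and Drd2 at 101 ± 16.5 FPKM (SD, n = 96). Drd5 stood at 1.15 ± 0.133 FPKM, Drd3 at 0.915 ± 0.199 FPKM and Drd4 at 0.130 ± 0.0690 FPKM in the same libraries. In expected counts this is a median of 9158.5 for Drd1, 6360.0 for Drd2, 130.3 for Drd5, 54.5 for Drd3 and 6.0 for Drd4. The number of reads behind Drd4 was the limit for that gene: 3 libraries of 2 months had none, and Drd4 passed the filter on low counts at 6 months only. At 2 and 10 months 4 of the 5 genes were therefore tested.

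**Figure D1:**
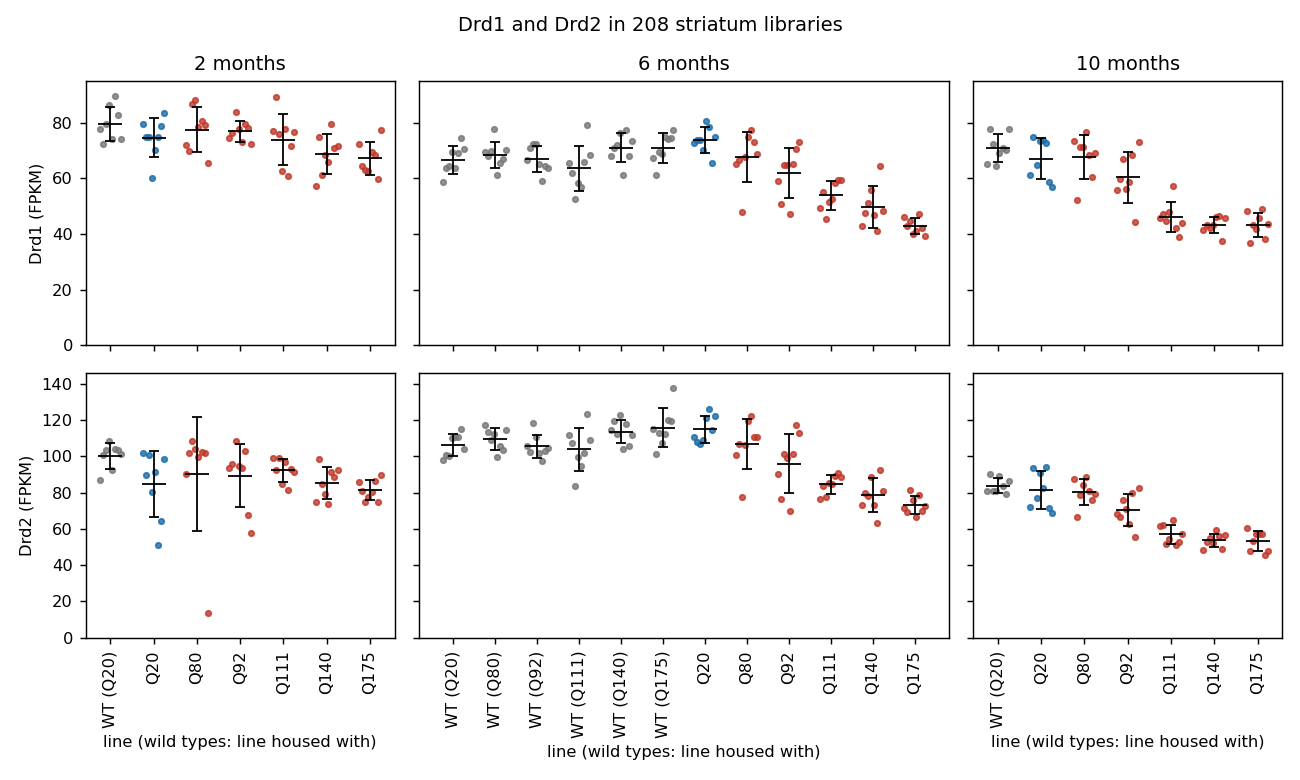
FPKM of Drd1 (top row) and Drd2 (bottom row) in each library at 2, 6 and 10 months; points are libraries, black marks show the mean and SD of 8 libraries, grey are wild types, blue Q20 and red the longer lines. At 6 months the means step down from Q20 to Q175, to 42.9 FPKM for Drd1 and 73.2 FPKM for Drd2 in Q175, and at 2 months 1 Q80 library sits at 13.4 FPKM of Drd2.

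Drd1, the receptor of the direct pathway, was lower in the longer lines at 6 months, in the order of their repeats. Its level was 73.7 ± 4.74 FPKM in Q20, 67.7 ± 9.05 FPKM in Q80, 62.0 ± 9.09 FPKM in Q92, 53.9 ± 5.14 FPKM in Q111, 49.8 ± 7.47 FPKM in Q140 and 42.9 ± 2.85 FPKM in Q175 (SD, n = 8 each). Every library of Q111, Q140 and Q175 lay below every library of Q20. The Q175 libraries ran from 39.2 to 47.1 FPKM with a median of 42.4 FPKM, and the Q20 libraries ran from 65.5 to 80.8 FPKM with a median of 73.8 FPKM. The Q140 libraries, from 41.3 to 64.5 FPKM with a median of 47.9 FPKM, came closest to the lowest Q20 library. The Q111 libraries ran from 45.4 to 59.5 FPKM, and 6 of the 8 Q92 libraries and 2 of the 8 Q80 libraries lay below the Q20 range.

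Against Q20 at 6 months, Drd1 fell by 0.85 on the log2 scale in Q175 (SE 0.0762, edgeR quasi-likelihood test, adjusted p = 2.29e-16), which is 41.8% less FPKM. It fell by 0.61 in Q140 (adjusted p = 2.64e-10), by 0.48 in Q111 (adjusted p = 7.97e-07) and by 0.28 in Q92 (adjusted p = 0.0157), all on the log2 scale by the same test. The log2 change in Q80 was -0.14 (adjusted p = 0.482). Fewer cells of a type and less RNA per cell cannot be told apart in RNA of whole striatum. Drd2 passed in the same 4 lines. It fell by 0.72 on the log2 scale in Q175 (SE 0.0725, edgeR adjusted p = 4.91e-14), or 36.3% less FPKM, by 0.59 in Q140 (adjusted p = 1.67e-10), by 0.47 in Q111 (adjusted p = 5.24e-07) and by 0.29 in Q92 (adjusted p = 0.00915). In Q80 its log2 change was -0.12 (adjusted p = 0.523).

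These calls stand against a background that grew with repeat length. Of all genes tested at 6 months against Q20, 0.289% were called in Q80, 5.99% in Q92, 12.8% in Q111, 27.9% in Q140 and 36.2% in Q175. Of the 5 receptor genes, 0 were called in Q80, 2 in Q92, 3 in Q111, 3 in Q140 and 4 in Q175, each of them lower. The counts of Q111 and Q175 include Drd4, which rests on few reads and on the filter, as given below. At an unadjusted p under 0.05 the edgeR test had 1 of 5 in Q80, against 11.2% of all genes, and DESeq2 called 0 there as well. Complete separation of a line from Q20 in FPKM, in either direction, was met by 3.15% of genes in Q111, 7.33% in Q140 and 13.4% in Q175.

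Drd2, the receptor of the indirect pathway, stood at 115 ± 7.40 FPKM in Q20, 107 ± 13.8 FPKM in Q80, 96.1 ± 16.5 FPKM in Q92, 84.7 ± 5.23 FPKM in Q111, 78.7 ± 9.20 FPKM in Q140 and 73.2 ± 5.10 FPKM in Q175 at 6 months (SD, n = 8 each). As with Drd1, the libraries of Q111, Q140 and Q175 were all below those of Q20. The Q175 libraries ran from 66.6 to 81.4 FPKM with a median of 72.0 FPKM, against 107 to 126 FPKM with a median of 113 FPKM in Q20. The widest group was Q92, with 69.9 to 117 FPKM and a median of 100.3 FPKM.

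Q92 also held the 6-month knock-in library richest in cortical markers. The 10 cortical neuron genes summed to 67.8 to 269 FPKM (median 88.4 FPKM) in Q92, against 55.9 to 107 FPKM (median 60.0 FPKM) in Q20, and none was at 0. With scores of cortical, thalamic and choroid plexus genes as covariates the Q92 change of Drd1 was -0.17 (edgeR adjusted p = 0.0689) and no longer passed, and against all wild types of that age it was -0.15 (adjusted p = 0.0967). The part of neighbouring tissue in the Q92 result was not tested further.

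Set against wild types from their own cages at 6 months, the 3 longest lines again had less of both receptors. Drd1 was at 42.9 ± 2.85 FPKM in Q175 and 70.9 ± 5.35 FPKM in its wild types (SD, n = 8 each), a log2 change of -0.80 (SE 0.0761, edgeR adjusted p = 5.4e-15). Drd2 was at 73.2 ± 5.10 FPKM in Q175 and 116 ± 10.7 FPKM in its wild types, a log2 change of -0.74 (SE 0.0725, edgeR adjusted p = 2.28e-14). Neither gene overlapped between the Q175 libraries and their wild types, a separation met by 12.9% of all genes tested.

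In Q140 against its wild types the log2 changes were -0.55 for Drd1 (adjusted p = 1.04e-08) and -0.57 for Drd2 (adjusted p = 8.29e-10) by edgeR. In Q111 they were -0.27 for Drd1 (adjusted p = 0.0131) and -0.32 for Drd2 (adjusted p = 0.000949), smaller than against Q20. The wild types of Q111 held 63.6 ± 8.21 FPKM of Drd1, the lowest mean of the 6 wild-type groups, and Q20 held the highest mean of all 12 groups of that age. Over the 6 wild-type groups the means of Drd2 ran from 104 to 116 FPKM. Neither receptor gene passed in Q92 (Drd1 -0.12, Drd2 -0.15), Q80 (-0.03 and -0.05) or Q20 (0.15 and 0.12) against own wild types. With tissue scores as covariates Drd2 passed in Q92 (-0.21, edgeR adjusted p = 0.0236).

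The share of all genes called against own wild types was 0.0227% in Q20, 0.051% in Q80, 0.051% in Q92, 8.94% in Q111, 24.2% in Q140 and 31.8% in Q175. Of the 5 receptor genes, 0 were called in each of Q20, Q80 and Q92, and DESeq2 called 0 too. An unadjusted p under 0.05 by edgeR was met by 1 gene in each, against 5.09%, 3.86% and 4.81% of all genes. In Q111 3 receptor genes were called, in Q140 3 and in Q175 2, all lower. The third gene was Drd4 in Q111 and Drd5 in Q140.

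At 10 months the decrease was of the same order, and the 3 longest lines lay close together. Drd1 stood at 67.1 ± 7.44 FPKM in Q20, 67.8 ± 7.88 FPKM in Q80, 60.4 ± 9.05 FPKM in Q92, 46.0 ± 5.40 FPKM in Q111, 43.2 ± 2.93 FPKM in Q140 and 43.3 ± 4.40 FPKM in Q175 (SD, n = 8 each). The Q175 libraries ran from 36.9 to 49.1 FPKM (median 43.4 FPKM), against 57.1 to 74.8 FPKM (median 68.9 FPKM) in Q20. The 2 groups did not overlap, and the Q111 group overlapped Q20 by 1 library, at 57.2 FPKM.

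Drd2 at 10 months stood at 81.4 ± 10.4 FPKM in Q20, 80.3 ± 7.05 FPKM in Q80, 70.3 ± 8.95 FPKM in Q92, 57.03 ± 5.25 FPKM in Q111, 53.6 ± 3.81 FPKM in Q140 and 53.2 ± 5.53 FPKM in Q175. Its libraries ran from 45.7 to 60.7 FPKM (median 55.0 FPKM) in Q175 and from 69.0 to 94.1 FPKM (median 79.9 FPKM) in Q20. Q111, Q140 and Q175 were each separate from Q20.

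Against Q20 at 10 months, Drd1 fell by 0.69 on the log2 scale in Q175 (SE 0.0820, edgeR adjusted p = 2.6e-09) and Drd2 fell by 0.67 (SE 0.0752, adjusted p = 5e-10). In Q140 the falls were 0.68 and 0.65, and in Q111 0.58 and 0.54, with adjusted p of at most 4.06e-07. In Q92 the log2 changes were -0.15 for Drd1 (adjusted p = 0.423) and -0.21 for Drd2 (adjusted p = 0.183), and in Q80 they were 0.02 and -0.02. With tissue scores as covariates both genes passed in Q92, Drd1 at -0.21 (edgeR adjusted p = 0.0219) and Drd2 at -0.25 (adjusted p = 0.00967). Against the wild types of 10 months the Q92 change was -0.24 for Drd1 (adjusted p = 0.135) and -0.27 for Drd2 (adjusted p = 0.0482). The share of all genes called was 0.122% in Q80, 1.12% in Q92, 12.5% in Q111, 22.5% in Q140 and 24.5% in Q175. Of the 4 receptor genes tested, 0 were called in Q80, 0 in Q92, 2 in Q111, 3 in Q140 and 4 in Q175, all lower. DESeq2 also called 0 in Q80 and Q92. There 0 and 1 receptor genes had an unadjusted p under 0.05 by edgeR, against 20.4% and 13.1% of all genes. Non-overlap with Q20 was met by 2.81% of all genes in Q111, 5.91% in Q140 and 6.7% in Q175.

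At 2 months no receptor gene passed in any line. Drd1 stood at 74.6 ± 7.01 FPKM in Q20, 77.6 ± 7.98 FPKM in Q80, 77.0 ± 3.74 FPKM in Q92, 74.0 ± 9.05 FPKM in Q111, 68.7 ± 7.23 FPKM in Q140 and 67.2 ± 5.88 FPKM in Q175. The groups overlapped widely: Q175 ran from 59.6 to 77.5 FPKM (median 66.4 FPKM) and Q20 from 60.3 to 83.6 FPKM (median 74.9 FPKM). The log2 change of Drd1 was -0.20 in Q175 (SE 0.0714, unadjusted p = 0.00725, edgeR adjusted p = 0.553) and -0.16 in Q140 (adjusted p = 0.726). Drd2 changed by -0.09 in Q175 (SE 0.159, adjusted p = 0.88), where its levels were 74.8 to 89.7 FPKM (median 80.4 FPKM), against 51.0 to 102 FPKM (median 90.6 FPKM) in Q20.

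The lowest Drd2 values of that age were in the libraries that stood apart. Q20 males 2 and 3 held 51.0 and 64.4 FPKM of Drd2, Q80 male 5 held 13.4 FPKM, and Q92 males 3 and 4 held 67.8 and 57.8 FPKM. Their Drd1 was 75.0, 78.7, 65.4, 78.3 and 72.5 FPKM in the same order, within or near the range of the other libraries. Without these 5 libraries the log2 change of Drd2 in Q175 was -0.22 (edgeR adjusted p = 0.161) and that of Drd1 was -0.15 (adjusted p = 0.596). The part of RNA quality in these values was not tested.

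The background at 2 months was small. Of all genes, 0.0118% were called in Q80, 0% in Q92, 0.0176% in Q111, 0% in Q140 and 0.218% in Q175. At an unadjusted p under 0.05 there were 0 of 4 receptor genes in Q80, Q92 and Q111 and 1 each in Q140 and Q175. The edgeR share of all genes at that p was 3.51%, 1.27%, 5.04%, 4.6% and 5.69% in the order of the lines. DESeq2 called 0 receptor genes in all of these lines. In Q20 against wild types at the ages with 1 wild-type group, 0% of genes were called at 2 months and 0.0116% at 10 months. Of the 4 receptor genes, 0 passed at either age. An unadjusted p under 0.05 by edgeR was met by 0 of 4 too, against 2.38% and 4.51% of all genes. Those wild types held 79.6 ± 6.21 FPKM of Drd1 at 2 months and 70.996 ± 4.99 FPKM at 10 months. Their Drd2 was 100.2 ± 7.06 and 84.0 ± 4.19 FPKM. DESeq2 called 0 in Q20 at both ages too.

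**Figure D2:**
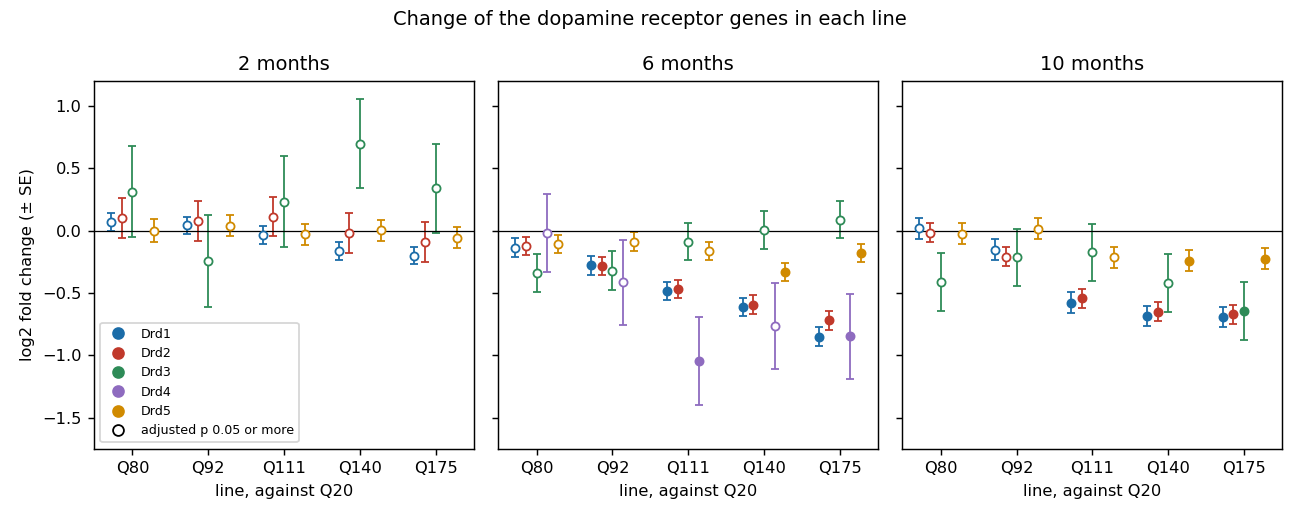
Log2 fold change of the 5 receptor genes in each line against Q20 at 2, 6 and 10 months, with bars of 1 SE; filled points passed an adjusted p of 0.05 and open points did not, and Drd4 was not tested at 2 and 10 months. Drd1 and Drd2 lie together at 6 and 10 months, at -0.85 and -0.72 in Q175 at 6 months, and no point is filled at 2 months.

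The change of Drd1 and Drd2 in Q175 differed between ages when the difference itself was tested. In a fit over all ages the Q175 effect of Drd1 was lower by 0.65 on the log2 scale at 6 than at 2 months (difference -0.65, SE 0.110, edgeR adjusted p = 3.91e-06) and the difference of 10 and 2 months was -0.51 (adjusted p = 0.000719). For Drd2 the differences were -0.62 (SE 0.150, adjusted p = 0.00227) and -0.59 (adjusted p = 0.00585). Without the 5 libraries that stood apart the 6-month difference was -0.70 for Drd1 and -0.51 for Drd2, and both passed. Between 10 and 6 months no receptor gene passed, with 0.14 for Drd1 and 0.04 for Drd2 (adjusted p = 0.999 for both). Over all genes 7.88% passed for 6 against 2 months, 6.33% for 10 against 2 months and 0.0112% for 10 against 6 months. Of the 5 receptor genes 2, 2 and 0 passed. An unadjusted p under 0.05 by edgeR was met by 2, 3 and 1 of them, against 22.9%, 22.5% and 5.46% of all genes. The gene that met it without passing was Drd3. Its difference was -0.98 for 10 minus 2 months (edgeR adjusted p = 0.0771) and -0.73 for 10 minus 6 months (adjusted p = 0.849).

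Females and males did not differ detectably in the Q175 effect. The female minus male difference at 6 months was 0.11 for Drd1 (SE 0.144) and 0.24 for Drd2 (SE 0.137), and edgeR called 0% of all genes at each of the 3 ages. No receptor gene had an unadjusted p under 0.05 at any age in that test, against 6.94%, 5.63% and 4.23% of all genes at 2, 6 and 10 months.

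A linear trend over the 6 lines gave the change per 10 CAG repeats. At 6 months it was -0.06 for Drd1 (SE 0.00525, edgeR adjusted p = 1.33e-12) and -0.05 for Drd2 (SE 0.00503, adjusted p = 1.71e-11) on the log2 scale. At 10 months it was again -0.06 for Drd1 (adjusted p = 7.04e-09) and -0.05 for Drd2 (adjusted p = 1.2e-09). At 2 months the slopes were -0.02 for Drd1 (unadjusted p = 0.001, adjusted p = 0.14) and -0.01 for Drd2 (adjusted p = 0.744). The fit took the libraries as independent, although repeat length has only 1 value in each of the 6 lines. The SE and p of a slope therefore measure spread between libraries and not between lines. Repeat length differs only between lines, so it cannot be told apart from any other difference between them. Of all genes the trend called 0.354% in the youngest animals, 39.9% at 6 months and 32.8% at 10 months, and of the receptor genes 0 of 4, 4 of 5 and 4 of 4. DESeq2 called 0 at 2 months, where 1 receptor gene had an unadjusted p under 0.05 by edgeR, against 9.29% of all genes. Without the 5 libraries that stood apart the 2-month slope of Drd2 was -0.02 and passed (adjusted p = 0.0215). The 2-month slope of Drd1 passed in 2 of 14 alternatives, 1 of them without Q20 (-0.03, adjusted p = 0.00702).

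Steps between neighbouring lines were not resolved. Of 45 exact two-sided permutation tests of neighbours (Drd1, Drd2 and Drd3, 8 against 8 libraries on log2 CPM, counts scaled to library size), 0 passed after adjustment over the 45, and the smallest p that such a test can give is 0.0001554. The steps with the smallest p were those of Q111 against Q92 at 10 months, -0.42 for Drd1 (SE 0.103, exact p = 0.00295, adjusted p = 0.0769) and -0.33 for Drd2 (SE 0.0865, exact p = 0.00342, adjusted p = 0.0769). At 6 months the largest step of Drd1 was that of Q175 against Q140, at -0.23 (SE 0.0858, exact p = 0.0141, adjusted p = 0.212).

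**Figure D3:**
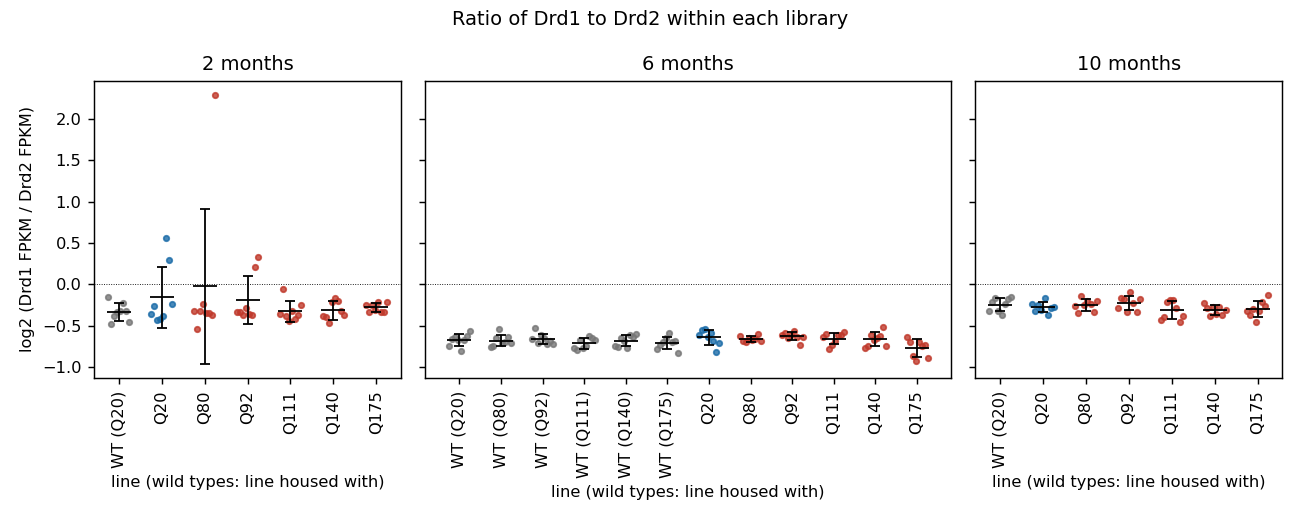
Log2 of Drd1 FPKM over Drd2 FPKM in each library at 2, 6 and 10 months, with the mean and SD of 8 libraries in black and colours as for the levels. The groups of 1 age lie at about the same height, from -0.77 to -0.63 at 6 months, and 5 libraries of 2 months lie above 0, the highest at 2.29.

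Drd1 and Drd2 kept a similar ratio over the groups of 6 months and over those of 10 months while both fell. The mean log2 ratio of Drd1 to Drd2 FPKM ran from -0.77 to -0.63 over the 12 groups of 6 months and from -0.31 to -0.22 over the 7 groups of 10 months. Its SD was smaller than that of either gene in 2 of the 7 groups of 2 months, in 11 of the 12 groups of 6 months and in 6 of the 7 groups of 10 months. The exception at 6 months was Q175, where the SD on the log2 scale was 0.107 for the ratio, 0.0953 for Drd1 and 0.0996 for Drd2. In Q175 at 6 months the ratio was -0.77 ± 0.107, against -0.64 ± 0.0909 in Q20 (SD, n = 8 each), a difference of -0.13 (SE 0.0497, exact permutation test, two-sided p = 0.0219, adjusted p = 0.329). At 10 months the difference in Q175 was -0.02 (SE 0.0409, exact permutation p = 0.62). After adjustment 0 of the 15 tests of a line against Q20 passed, which does not show that the ratios are equal.

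At 2 months the ratio was above 0 in the 5 libraries that stood apart and in no other library of the 208. The values were 0.56 and 0.29 in Q20 males 2 and 3, 2.29 in Q80 male 5, and 0.21 and 0.33 in Q92 males 3 and 4. Among the remaining 51 libraries of that age, the Q111 female 2 library came nearest, at -0.06, and it also had the highest mitochondrial share of them, 17.4%. The level of the ratio differed between ages in wild types too, with -0.33 at 2 months and -0.24 at 10 months, against -0.71 to -0.66 in the 6 wild-type groups of 6 months. The labels do not say whether the ages were prepared together, so age and preparation cannot be told apart in levels.

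Drd5, the second D1-like receptor, was lower in Q140 at 6 months. It stood at 1.21 ± 0.152 FPKM in Q20, 1.13 ± 0.0867 FPKM in Q80, 1.16 ± 0.112 FPKM in Q92, 1.10 ± 0.130 FPKM in Q111, 0.991 ± 0.0671 FPKM in Q140 and 1.12 ± 0.116 FPKM in Q175 (SD, n = 8 each). The log2 change in Q140 was -0.33 against Q20 (SE 0.0733, edgeR adjusted p = 0.000219) and -0.24 against its own wild types (SE 0.0739, adjusted p = 0.0114). The libraries of Q140 ran from 0.880 to 1.10 FPKM, against 0.997 to 1.48 FPKM in Q20, so the groups overlapped.

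In Q175 the change of Drd5 depended on the group it was set against. It was -0.18 against Q20 (SE 0.0723, edgeR adjusted p = 0.0418) and 0.02 against own wild types (SE 0.0728, adjusted p = 0.863), whose level was 1.05 ± 0.0782 FPKM, the lowest of the 6 wild-type groups. At 10 months Drd5 was 1.01 ± 0.110 FPKM in Q175, 0.990 ± 0.135 FPKM in Q140 and 0.996 ± 0.0571 FPKM in Q111, against 1.14 ± 0.0831 FPKM in Q20. The log2 change passed in Q175 (-0.23, adjusted p = 0.0445) and Q140 (-0.24, adjusted p = 0.0334) and not in Q111 (-0.21, adjusted p = 0.0885). The Q140 call at 10 months held in 4 of 11 alternatives (adjusted p up to 0.147), and that at 6 months in 12 of 12. Drd5 in Q111 passed in the alternatives with tissue scores (-0.25, adjusted p = 0.0332) and with only the groups compared (-0.23, adjusted p = 0.0417). The trend passed at both ages, with -0.02 per 10 repeats (adjusted p = 0.00438 at 6 months and 0.00241 at 10 months). At 2 months all 6 line means lay between 1.06 and 1.11 FPKM. Leaving out 1 library at a time ended the Q175 call of Drd5 in 9 of 16 cases at 6 months (adjusted p up to 0.142) and in 10 of 16 at 10 months (adjusted p up to 0.114). The expected counts of Drd5 were not whole numbers in 197 of the 208 libraries, to within 0.001, against 0 libraries for each of the other 4 genes. Such counts arise where an estimate splits reads between features, so the level of Drd5 is the least certain of the 5 in that respect.

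Drd3, a D2-like receptor, did not follow Drd1 and Drd2 at 6 months, and in Q175 it was lower at 10 months. At 6 months it stood at 0.995 ± 0.170 FPKM in Q20, 0.790 ± 0.197 FPKM in Q80, 0.814 ± 0.160 FPKM in Q92, 0.956 ± 0.207 FPKM in Q111, 1.03 ± 0.207 FPKM in Q140 and 1.11 ± 0.179 FPKM in Q175. The log2 change in Q175 was 0.09 (SE 0.148, edgeR adjusted p = 0.684), and no line passed against Q20 or its own wild types. At 10 months the level was 0.507 ± 0.204 FPKM in Q175, with libraries from 0.219 to 0.819 FPKM, and 0.757 ± 0.214 FPKM in Q20, with libraries from 0.509 to 1.21 FPKM. That log2 change was -0.65 (SE 0.235, adjusted p = 0.0362), at 10 to 58 counts per library over the whole age. The groups overlapped, and the call was lost without any of 6 single libraries, to an adjusted p of up to 0.111. The 10-month trend of Drd3 was -0.04 per 10 repeats (adjusted p = 0.0358) and did not pass without Q175 (adjusted p = 0.251).

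Drd4, the rarest member, had 1 to 19 counts per library at 6 months. The median was 5.0 counts in knock-ins and 7.5 in wild types, and the highest library held 10 counts in Q111 and 13 in Q175. Drd4 therefore passed the filter, with its minimum count of 10, largely through libraries of other groups where it was higher. The falls given here are not independent of that filter, and without it those of Q111 and Q175 against Q20 did not pass. Its level was 0.154 ± 0.0571 FPKM in Q20, 0.153 ± 0.0825 FPKM in Q80, 0.115 ± 0.0817 FPKM in Q92, 0.0745 ± 0.0405 FPKM in Q111, 0.0929 ± 0.0283 FPKM in Q140 and 0.0887 ± 0.0596 FPKM in Q175. The log2 change passed in Q111 against Q20 (-1.05, SE 0.350, edgeR adjusted p = 0.0333) and against its own wild types (-1.41, SE 0.339, adjusted p = 0.00246), and in Q175 against Q20 (-0.85, SE 0.339, adjusted p = 0.041). It did not pass in Q140 (-0.77, adjusted p = 0.0882) nor in Q175 against own wild types (-0.55, adjusted p = 0.245). The Q175 libraries ran from 0.0454 to 0.226 FPKM, against 0.0944 to 0.255 FPKM in Q20, and the groups overlapped. Leaving out 1 library at a time ended the Q175 call in 8 of 16 cases, with an adjusted p of up to 0.106. The slope at 6 months was -0.07 per 10 repeats (SE 0.0207, adjusted p = 0.00884).

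Retina and pineal markers, genes of tissues known for Drd4, summed to 0.359 to 0.746 FPKM in Q175 at 6 months and 0.292 to 0.507 FPKM in Q20. These sums were not tested. At 10 months Drd4 was not tested, and its mean was 0.104 ± 0.0521 FPKM in Q175 and 0.101 ± 0.0499 FPKM in Q20.

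**Figure D4:**
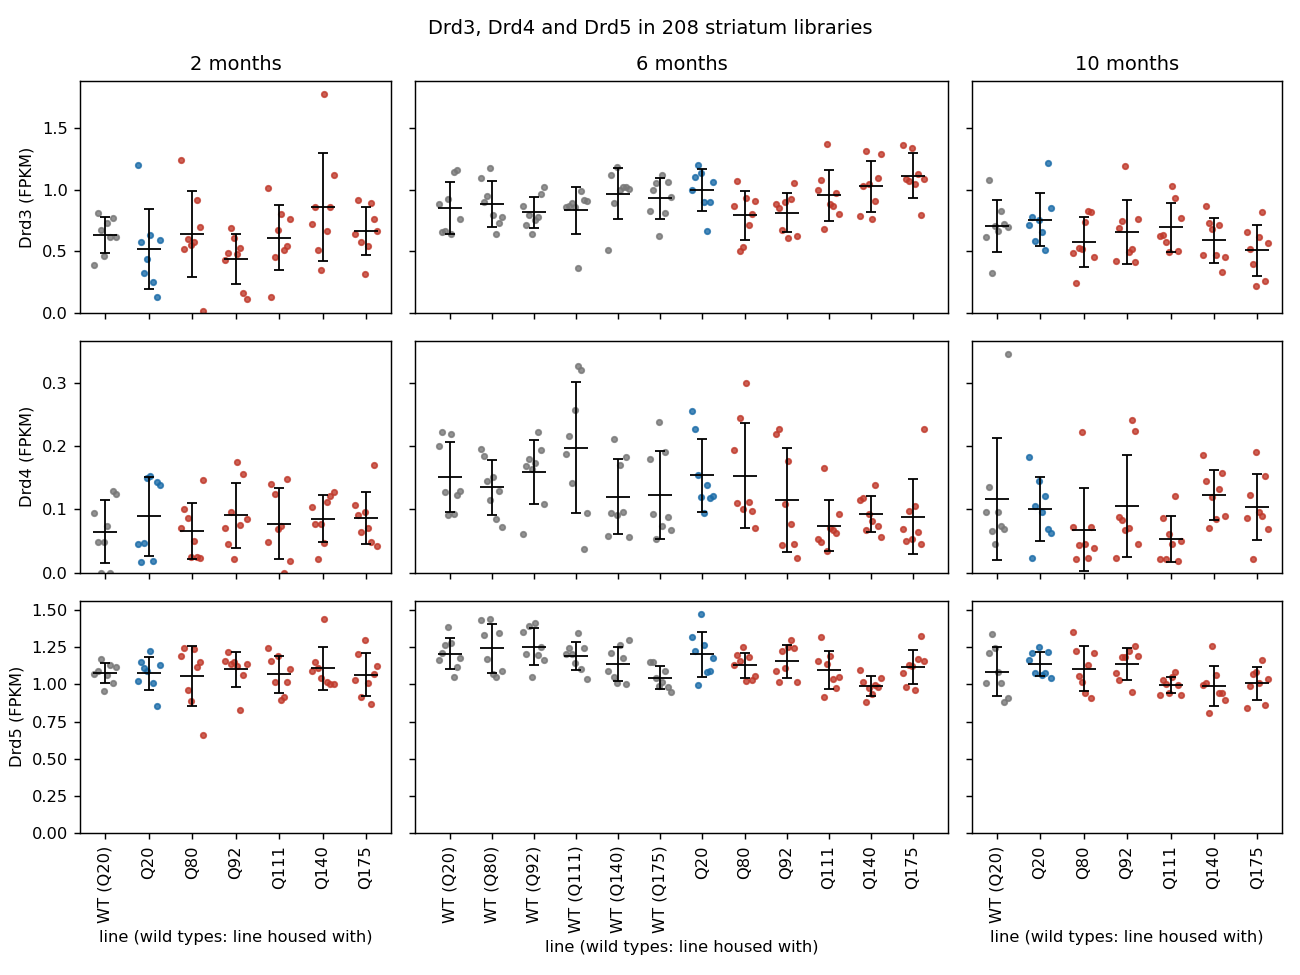
FPKM of Drd3, Drd4 and Drd5 (rows) in each library at 2, 6 and 10 months, drawn as for Drd1 and Drd2, on axes of their own that start at 0. The groups overlap throughout, and the Drd4 libraries lie between 0 and 0.345 FPKM.

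The genes through which these receptors act were counted in Q175 against Q20. At 6 months 3179 of 17642 genes tested were higher and 3203 lower, with a median log2 change of 0.01, and at 10 months 2136 and 2076 of 17170, with a median of 0.01. Among the G proteins and adenylyl cyclases, 4 of 16 were higher and 7 lower at 6 months (median 0.00), and likewise 4 and 7 at 10 months (median -0.01). The largest fall was that of Adcy5, the adenylyl cyclase of medium spiny neurons, at -0.81 on the log2 scale at 6 months and -0.74 at 10 months. Gnb5, the G protein beta subunit that pairs with RGS proteins, changed by -0.41 and -0.30, and Gng7, the gamma subunit of striatal Golf, by -0.39 and -0.37. The largest rises at 6 months were those of Gnas (0.23), Gnai1 (0.21) and Gnai2 (0.13), which encode Gs and Gi alpha subunits, and at 10 months those of Gnai2 (0.15), Gnaz (0.13) and Gnai1 (0.13). Not all alpha subunits rose. Gnal, that of Golf, was lower at both ages (-0.27 and -0.16), and so was Gnao1, that of Go (-0.25 and -0.23). The naming rule does not cover Gnal and Gnao1, which were added with their values already seen.

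In the DARPP-32 and protein kinase A arm, 5 of 19 genes were higher and 11 lower at 6 months (median -0.15), and 3 and 11 at 10 months (median -0.13). Pde10a, the phosphodiesterase of medium spiny neurons, changed by -0.99 and -0.94, Arpp21 by -0.96 and -0.76 and Arpp19, a phosphoprotein of the kinase, by -0.93 and -0.83. Of the genes that were higher, Prkar1b (0.24 and 0.16), Prkacb (0.13 and 0.10) and Prkar1a (0.09 and 0.08) passed at both ages and Prkar2a (0.20) at 6 months, and they encode subunits of the kinase. The other at 6 months was Creb1 (0.11), a transcription factor that the kinase phosphorylates. The naming rule does not cover Creb1 or Prkar1a at 6 months, which were added with their values already seen.

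In the list of receptor kinases, arrestins and RGS proteins, 2 of 16 genes were higher and 10 lower at 6 months (median -0.13). At 10 months 0 were higher and 6 lower (median -0.08). Receptor kinases, arrestins and RGS proteins end receptor signals. The list also held Akt1, Gsk3a and Gsk3b, which are none of these and which the naming rule does not cover. Gsk3a and Gsk3b were among the lower genes at 6 months, and Gsk3b at 10 months. Rgs14 changed by -1.10 and -0.93, Rgs9, which speeds the shut-off of Gi and Go, by -0.89 and -0.80, and Rgs4 by -0.86 and -0.62. Grk4 (0.36) and Grk2 (0.16), receptor kinases, were the 2 that were higher at 6 months. Of 15 interacting and trafficking proteins, 4 were higher and 6 lower at 6 months (median 0.03), and 2 and 4 at 10 months (median -0.05). Ppp1r9a (-0.41) and the scaffold Dlg4 (-0.33) were the largest falls at 6 months. The potassium channel gene Kcnj3 (0.49) and the receptor sorting genes Gprasp2 (0.46) and Gprasp1 (0.21) were the largest rises. At 10 months Ppp1r9a (-0.38) and Dlg4 (-0.27) were among the genes that were lower, and Gprasp2 (0.23) and Gipc1 (0.18) were higher.

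Of the 8 tested genes of dopamine synthesis, transport and breakdown, 1 was higher and 1 lower at both ages. They were Ddc, the decarboxylase that makes dopamine (0.35 and 0.35), and Th, the enzyme before it (-0.32 and -0.28). The medians were -0.03 and 0.04. At 2 months 0 genes of any of these lists passed except 1 of the kinase, arrestin and RGS list, which was lower.

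**Figure D5:**
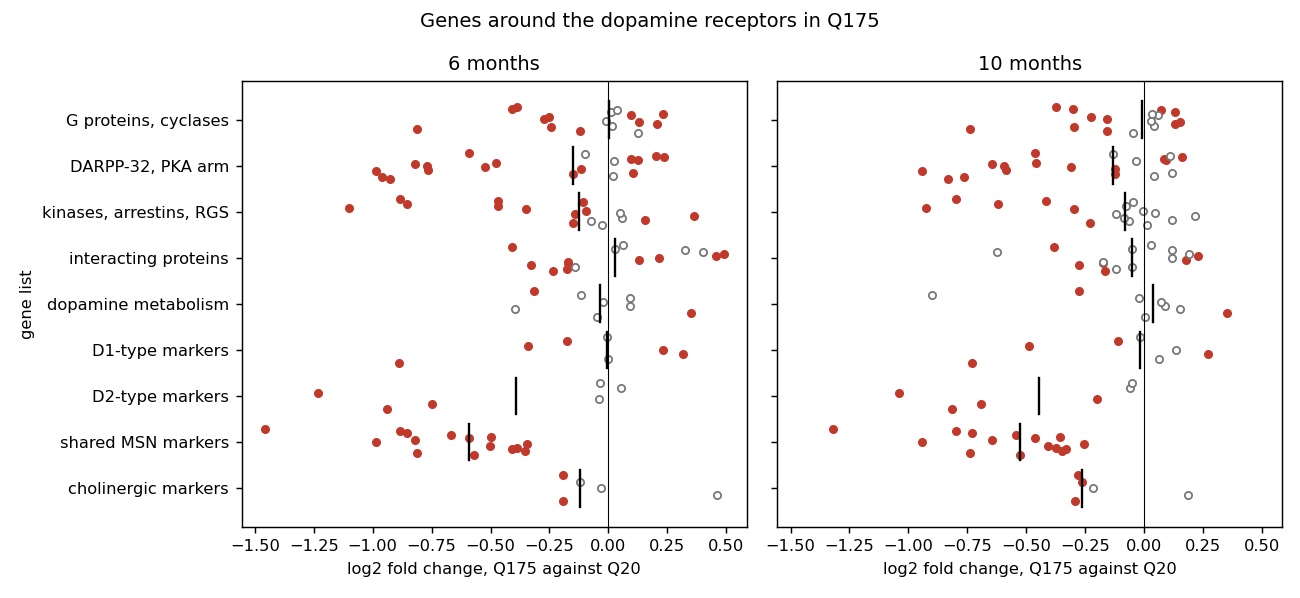
Log2 fold change of each tested gene in 9 lists, Q175 against Q20, at 6 months (left) and 10 months (right); red points passed an adjusted p of 0.05, open points did not, and black bars are list medians. All 15 shared medium spiny neuron markers lie left of 0, and the D1-type markers lie on both sides.

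Other markers of the neurons that carry Drd1 and Drd2 moved unequally. Of 7 D1-type markers beside Drd1, 2 were higher and 3 lower at 6 months (median 0.00), and 1 and 3 at 10 months (median -0.02). Chrm4, a muscarinic receptor, changed by -0.89 and -0.73, Pdyn, the dynorphin precursor, by -0.34 and -0.49, and Sfxn1 by -0.18 and -0.11. Eya1 (0.32 and 0.27) was higher at both ages and Isl1, a transcription factor of direct pathway neurons, was higher at 6 months (0.23). Of 6 D2-type markers beside Drd2, 0 were higher and 3 lower at 6 months (median -0.39), and 0 and 4 at 10 months (median -0.45). Penk, the enkephalin precursor, changed by -1.23 and -1.04, Adora2a, the adenosine receptor of these neurons, by -0.94 and -0.82, and Gpr6 by -0.75 and -0.69. Sp9 (0.05), Grik3 (-0.04) and Ttc12 (-0.03) did not pass at 6 months, and at 10 months Sp9 (-0.06) and Ttc12 (-0.05) did not.

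All 15 of the 15 markers shared by both neuron types were lower at both ages, with medians of -0.59 and -0.53. Gng7, Adcy5, Ppp1r1b, Pde10a, Ptpn5 and Rgs9 are also members of the signalling lists above, so the lists are not separate observations. Scn4b, a sodium channel subunit, changed by -1.46 and -1.32, and Pde10a and Rgs9 were the next largest. Their summed level was 2406 to 2782 FPKM in Q175 at 6 months, against 3777 to 4373 FPKM in Q20. The part of neuron number in these changes was not tested. Of 5 cholinergic interneuron markers, 0 were higher and 2 lower at 6 months (median -0.12), and 0 and 3 at 10 months (median -0.26). Chat, which makes acetylcholine (-0.19 and -0.29), and Slc5a7, the choline transporter (-0.19 and -0.28), passed at both ages. At 6 months Lhx8 (-0.03) and Gbx2 (0.46) did not pass, nor did Lhx8 (-0.22) and Gbx2 (0.19) at 10 months.

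Markers of neighbouring tissues and glia were counted in the same comparison. Of 10 cortical genes 0 passed at either age, and their summed level in Q175 was 67.5 to 90.5 FPKM at 6 months, against 55.9 to 107 FPKM in Q20. Of 7 thalamic genes 2 were higher at 6 months, Lhx9 (1.98) and Calb2 (0.89), and 0 at 10 months. They summed to 19.4 to 114 FPKM (median 32.1 FPKM) in Q175, against 15.3 to 27.9 FPKM (median 17.7 FPKM) in Q20 at 6 months. Of 8 choroid plexus genes 0 passed at either age. Of 3 tested pituitary genes 2 were lower at 6 months, where 1 Q20 library reached a sum of 106.5 FPKM, and 0 of 1 at 10 months. Of 5 tested midbrain dopamine neuron genes 1 was higher and 1 lower at both ages, Ddc and Th again.

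Of 5 astrocyte genes 0 were higher and 1 lower at 6 months, and 1 and 3 at 10 months. Of 5 oligodendrocyte genes 0 were higher and 1 lower at 6 months, and 2 and 1 at 10 months. Of 5 microglial genes 2 were lower at 6 months and 1 at 10 months. With the cortical, thalamic and choroid plexus scores as covariates, Drd1 and Drd2 passed in Q175 at both 6 and 10 months.

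Genes whose pattern was most like a receptor gene's were ranked by Pearson's r of group mean log2 CPM over the 26 groups, each age centred on the mean of its groups, among 13234 genes. For Drd1 the 5 closest were Rasd2, Syndig1l, Tbc1d8, Cnr1 and Adcy5, with r of 0.994 to 0.992. Rasd2 encodes a striatal GTP-binding protein and Cnr1 the cannabinoid receptor of these neurons. For Drd2 they were Pde10a (0.988), Arel1, Zswim6, Cntnap3 and Slmap (0.977). Drd1 and Drd2 had an r of 0.967 with each other, below these. For Drd5 the closest were Egfl8 (0.864), Cdkn1a, Fancd2, Casp6 and Tgfbr3l, and for Drd3 they were Dock10 (0.852), Stox2, Cntnap5a, Tcf20 and Prkg1. Drd5 had an r of 0.741 with Drd1 and 0.725 with Drd2, while Drd3 had -0.03 with Drd1 and 0.09 with Drd2. Drd4 had 0.335 with Drd1. The points share their libraries and scaling, and many genes differ with the line, so these values are a description.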

How the data were processed

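Striatal RNA was sequenced by the authors in 208 libraries. CASAVA 1.8.2 is the tool listed, per the submitters' processing notes; the aligner, the annotation and the build of the genome are not given in the sources used. The authors deposited expected counts (estimated counts per gene, of which 32.7% of those above 0 are not whole) and FPKM for the same 39179 genes. Counts were rounded and fitted across all genes of an age with edgeR 4.0.16 under R 4.3.3. The filter was filterByExpr (minimum count 10, minimum total 15), leaving 17006, 17642 and 17170 genes at 2, 6 and 10 months, 16947, 17370 and 17108 for the trends and 17863 for the fit over all ages. The model had TMM factors, robust quasi-likelihood dispersion, a term for sex and 1 for each group. Adjusted p are Benjamini-Hochberg values within each test, called under 0.05, and the SE is the log2 change over the square root of F. Levels are the authors' FPKM, so that genes can be compared per length. The Drd1 to Drd2 ratio and steps between neighbouring lines were tested by exact two-sided permutation (scipy 1.17.1), over 15 and 45 tests. Animals differ between groups, and the main fit used no replicate block. Wild types were cage mates of a knock-in line, and replicate labels and L codes recur across groups. No step here told PCR copies from separate molecules.

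Named genes are the 5 receptors, the 3 largest called rises and falls of each gene list in Q175 against Q20 at 6 and 10 months with members that did not pass in lists of 6 or fewer, and the 5 genes most like each receptor gene that passed the filter at all ages. For cortical, thalamic, choroid plexus, pituitary, retinal and glial lists counts are given in place of most names. The members, lists and rules were chosen with earlier results of these data known. Alternatives were DESeq2 1.42.0, RLE factors, no filter, limma 3.58.1 on log2(FPKM + 1) or log2(FPKM + 0.1), a replicate block, the L code of the library names, tissue scores, wild types as the reference, only the groups compared, other forms of the trend, CPM or within-sex permutation for the ratio, and libraries left out. The fitting steps were tested on simulated data. Pde2a, Gpr52, Slc18a3 and Lhb, fixed in the lists, were not analysed here, and some other list members are not reported here. Promoters are RefSeq windows of GRCm38.p6, and no coordinates come from the authors' files. Figures were drawn with matplotlib 3.10.9.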

Additional observations from a re-analysis of the deposited data

Results flagged for a closer look

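Of 130 groups of 8 libraries (5 genes in 26 groups), 12 held 1 library far from the other 7 by Dixon's criterion at 95%, and chance alone flags about 1 group in 20. For Drd1 the library was Q80 female 3 at 6 months, with 48.0 FPKM against 65.3 to 77.4 FPKM in the others, and Drd2 in that library was also the lowest of its group at 77.6 FPKM. Choroid plexus genes in the group of that library reached a summed level of 4598 FPKM, against a group median of 75.6 FPKM. The part of choroid plexus tissue was not tested beyond 2 alternatives, tissue scores as covariates and leaving that library out with 2 others. Without those libraries the log2 changes were -0.08 for Drd1 and -0.06 for Drd2 in Q80 against Q20. Neither gene passed there in any of 12 alternatives. For Drd2 the library was Q80 male 5 at 2 months, with 13.4 FPKM against 90.2 to 108 FPKM, 1 of the 5 that stood apart.

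Drd3 was high in Q20 female 1 at 2 months (1.20 FPKM against 0.131 to 0.632 FPKM) and Q92 female 4 at 10 months (1.19 against 0.411 to 0.759 FPKM). It was low in the wild-type male 1 housed with Q111 (0.365 against 0.856 to 0.986 FPKM) and the wild-type female 1 housed with Q140 (0.511 against 0.887 to 1.18 FPKM), both at 6 months. The high Drd4 values were 0.165 FPKM in Q111 female 3 and 0.226 FPKM in Q175 male 4 at 6 months, 0.223 FPKM in Q80 female 4 and 0.345 FPKM in wild-type male 4 at 10 months. They rest on 9 to 15 counts. Drd5 was high in Q140 male 1 (1.44 against 1.004 to 1.15 FPKM) and low in Q92 male 2 (0.827 against 1.07 to 1.22 FPKM), both at 2 months.

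The Q175 effect differed between ages by a test of the difference in 4 cases. It was -0.65 for Drd1 and -0.62 for Drd2 at 6 minus 2 months, and -0.51 for Drd1 and -0.59 for Drd2 at 10 minus 2 months, on the log2 scale.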

How the results depend on the processing

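Of 353 alternative values for the called changes of Drd1 and Drd2, their age differences and the ratio in Q175, 347 kept direction and side of the threshold and 1 changed sign, the ratio at 2 months given below, which passed in neither setting. Over all results 1397 of 1553 kept both, and 70 changed sign, of which 0 passed the threshold. Drd1 in Q92 at 6 months did not pass with tissue scores (-0.17, edgeR adjusted p = 0.0689), with wild types as the reference (-0.15, adjusted p = 0.0967) or with only the groups compared (-0.28, adjusted p = 0.111). With only the groups compared Drd2 in Q92 did not pass (-0.28, adjusted p = 0.139). With the L code Drd1 in Q111 against own wild types did not pass (-0.22, adjusted p = 0.0529). The ratio in Q175 at 2 months was 0.0694 without the libraries that stood apart, a setting chosen after seeing the data, and -0.12 with them. Leaving out each replicate in turn moved Drd1 in Q175 between -0.88 and -0.83 and Drd2 between -0.74 and -0.69 at 6 months, and between -0.73 and -0.66 and between -0.71 and -0.63 at 10 months, all past the threshold.

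The calls of the 3 rarer genes were less stable. Drd4 in Q175 at 6 months was lost without the filter (adjusted p = 0.0678) and Drd4 in Q111 too (adjusted p = 0.053). Against Q20 the Q175 call of Drd4 held in 15 of 25 alternatives (adjusted p up to 0.12) and the Q111 call in 7 of 9 (adjusted p up to 0.113). Drd5 in Q175 was called in 13 of 28 alternatives at 6 months and 11 of 27 at 10 months, and Drd3 in Q175 at 10 months in 15 of 25. The 6-month trend of Drd5 was called in 11 of 13 alternatives, with the highest adjusted p, 0.143, without Q20. Drd3 in Q175 at 6 months was higher and passed with wild types as the reference (0.27, adjusted p = 0.0399), as did its 6-month trend with tissue scores (0.02 per 10 repeats, adjusted p = 0.0385) and without Q20 (0.05, adjusted p = 0.00465). The 10-month trend of Drd3 was called in 5 of 10 alternatives. With wild types as the reference Drd4 in Q140 at 6 months passed (-0.69, adjusted p = 0.0448). With the replicate block Drd1 in Q175 at 6 months was -0.85 and Drd2 was -0.72. Same-labelled Q175 and Q20 libraries correlated in their deviations at a median of 0.09, 0.17 and 0.07 at 2, 6 and 10 months, and 1 of 8, 6 of 8 and 1 of 7 Q175 libraries did so best with their own label. The deviations were taken from group means without removing sex, and libraries with the same label share a sex, so sex was not separated from label. Depth limits Drd4, at 0 to 19 counts, and Drd3, at 1 to 86.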
